A study of Mus musculus and Rattus norvegicus with 37 samples.

Results

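The genes of glycogen synthesis and breakdown were followed in the livers of 21 mice and 16 rats. They are 9 genes chosen by name: Gys2, Ugp2, Gyg, Gbe1, Pygl, Phka2, Ppp1r3b, Ppp1r3c and Ppp1r3g. Both mouse tables held all 9 of them among 47929 named genes. The rat tables held 8 of the 9 among 28026 named genes, with a gene named Gyg1 whose values are given in place of Gyg. RNA-seq of polyA+ RNA was made from whole liver taken in the fed state, and values are normalized counts, which the authors scaled within each table, unless another scale is named. All mice were females on a C57BL/6J background. The WT/Floxed group pooled WT mice aged 9 to 11 weeks (4 with LNA29, 3 with saline) and mice carrying floxed Sirt1 aged 15 to 20 weeks (4 with LNA29, 2 with saline), so that background and age cannot be told apart. Mice labelled L-Sirt1 KO, in which Sirt1 is deleted in the liver, were 15 to 20 weeks old (4 with LNA29, 4 with saline). LNA29 is a mixture of antisense oligonucleotides with locked bases that block miR-29a and miR-29b/c, injected once under the skin at 20 mg/kg each, and livers of LNA29 and saline mice were collected on day 7. The rats were males: Zucker Fatty rats (ZFR, fa/fa) and Zucker Lean rats (ZLR) 5.5 months old, and 3-month-old ZFR that received BT2 at 20 mg/kg or its dimethylsulfoxide vehicle each day for 1 week (n = 4 in each of the 4 groups). BT2 is a small molecule that inhibits the kinase of the branched-chain ketoacid dehydrogenase. A fatty rat carries its leptin receptor change in every tissue, and the promoter that drives the deletion of Sirt1 is not given in the sources used here.

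Glycogen is the branched glucose polymer in which the liver stores sugar after meals and from which it feeds the blood between them. Glucose 1-phosphate is turned into UDP-glucose, glycogenin starts the chain, glycogen synthase lengthens it and branching enzyme adds the branch points, while glycogen phosphorylase, switched on by phosphorylase kinase, takes glucose units off. Targeting subunits hold protein phosphatase 1 on the glycogen particle, where it switches the synthase on and the phosphorylase off. Much of this control acts on the proteins, so that a transcript level is not a measure of glycogen or of enzyme activity, neither of which was measured in the data analysed here.

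The 3 mature miRNAs of the family that LNA29 inhibits are shown with the seed they share, bases 2 to 8 from the 5′ end, printed in capitals (RefSeq, GRCm38.p6).
mmu-miR-29a-3p: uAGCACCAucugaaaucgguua
mmu-miR-29b-3p: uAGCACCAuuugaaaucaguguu
mmu-miR-29c-3p: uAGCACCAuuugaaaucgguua
The match to this seed, TGGTGCT, was looked for on the sense strand of annotated mouse 3′ UTRs, with no other motif searched. None of the 9 genes held it (0 of 9), whereas 16.3% of the tested genes with a 3′ UTR in each mouse table did. Col1a1, a collagen gene known as a miR-29 target, held 1 match. The 3′ UTRs of the glycogen genes had longest forms of 172 bases (Pygl) to 3276 bases (Ppp1r3b). These letters describe the annotated transcripts of GRCm38 and say nothing of other kinds of site.

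Depth differed far more among the rats than among the mice. Mouse libraries held an estimated 42.6 to 77.96 M reads and rat libraries 0.188 to 58.5 M. In the 3 shallowest rat libraries (ZLR replicates 3 and 4 and ZFR vehicle replicate 4, all under 0.2 M) 1 read was worth 10.3 to 10.5 normalized counts. Sirt1 counts were 534.6 to 616.5 in the libraries labelled L-Sirt1 KO and 492.7 to 699.1 in WT/Floxed libraries. A total per gene cannot show the loss of single exons, so these values do not test the label. Col1a1 passed the call with LNA29 in both mouse tables, with log2 values of 0.87 (WT/Floxed, limma adjusted p = 0.123) and 1.71 (L-Sirt1 KO, adjusted p = 0.00783). The hepatocyte markers summed to 4726000 to 7852340 in the mouse libraries and to 177231 to 295275 in the rat libraries, far above every other marker list.

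In mouse liver the glycogen genes differed widely in abundance once counts were divided by merged exon length. Ugp2, which makes UDP-glucose, led at 6392 ± 699 (SD, n = 5) normalized counts per kb in saline-treated WT/Floxed mice. Pygl, the liver phosphorylase, followed at 4426 ± 731 per kb. These 2 did not overlap in those mice. Ppp1r3b (2789 ± 529), Ppp1r3c (2467 ± 955) and Gys2 (1717 ± 119), the liver glycogen synthase, came next in counts per kb, and the values of Ppp1r3c overlapped those of Ppp1r3b, Gys2 and Pygl. Gbe1, the branching enzyme, lay below all of them at 1133 ± 129 per kb, with no overlap with Gys2. Phka2 (235 ± 121), Gyg (116 ± 21.02) and Ppp1r3g (36.6 ± 24.2) were the least abundant per kb. Gyg and Phka2 overlapped, and so did Ppp1r3g and Gyg in every group but this one. By mean per kb the order was Ugp2, Pygl, then Ppp1r3b and Ppp1r3c, then Gys2, Gbe1, Phka2, Gyg and Ppp1r3g in all 4 mouse groups, with Ppp1r3b above Ppp1r3c in both saline groups and below it in both LNA29 groups. Each mouse table was normalized on its own, so levels are read within a group here.

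**Figure D1:**
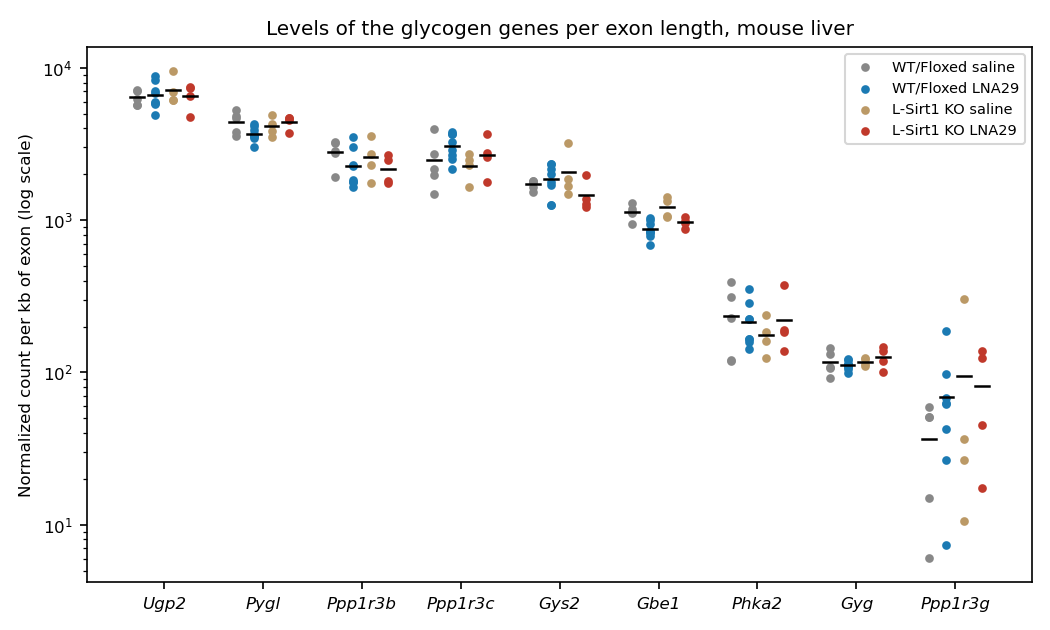
Normalized counts per kb of merged exon length (log axis) of the 9 glycogen genes in mouse liver, 1 point per library and a bar at each group mean, ordered by the mean of saline-treated WT/Floxed mice. Ugp2 and Pygl lie at the top, Gbe1 lies below Gys2, and Ppp1r3g spreads most, from 6.04 to 59.4 per kb in the saline-treated WT/Floxed mice.

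The first comparison asks how the glycogen genes respond to miR-29 inhibition in mice with intact Sirt1. Branching enzyme was the member that passed the call, and it was lower with LNA29. A mouse gene was called at a limma p under 0.05 together with a Benjamini-Hochberg adjusted p under 0.2, provided that its mean exceeded 50 and its fold change 1.2. It was met by 1 of 9 members, against 4.35% of the 15811 genes tested (1.93% lower, 2.42% higher). An unadjusted p under 0.05 was reached by 2 members (13.3% of all genes), and the groups overlapped for each of the 9. The median log2 fold change was -0.031 over the members and 0.0017 over all genes, with 4 members above 0 and 5 below. In these bulk livers fewer cells of a type and less RNA per cell cannot be told apart.

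Gbe1 lies on chromosome 16 of GRCm38, from 70313949 to 70569716 on the + strand. In the 5 saline-treated mice its counts were 6941, 5043, 5956, 6023 and 6368 in the order of replicate numbers, and in the 8 LNA29-treated mice the lowest was 3651, the median 4487 and the highest 5529. All 8 LNA29 mice lay below the saline median and 6 of them below every saline mouse, so the overlap came from a single saline mouse at 5043. The mean fell from 6066 to 4646, a log2 fold change of -0.39 (SE 0.10, 95% interval -0.61 to -0.17, limma adjusted p = 0.0851). An exact two-sided permutation test over 1287 splits gave p = 0.00466. The difference was -0.35, -0.63 and -0.24 (log2) within the 3 sequencing runs, and it was -0.47 among WT and -0.28 among floxed mice. Without saline replicate 1, the highest saline mouse, the log2 fold change was -0.34 and the adjusted p 0.213, past the limit of the call. The call also ends at an adjusted p under 0.05.

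Pygl, the phosphorylase that releases glucose 1-phosphate, was the second member with an unadjusted p under 0.05, but it missed the call. Saline counts were 36620, 25994, 33258, 32052 and 24673, and LNA29 counts ran from 20728 through a median of 24846 to 29314. All 8 LNA29 mice lay below the saline median, and the 2 floxed saline mice, replicates 2 and 5, lay inside the LNA29 range. The log2 difference was -0.25 (SE 0.11, 95% interval -0.48 to -0.03, limma adjusted p = 0.303), and the exact permutation p was 0.042. It was -0.35 among WT and -0.075 among floxed mice. It passed the call without saline replicate 5 (log2 fold change -0.33, adjusted p = 0.178) and with sample quality weights (-0.37, adjusted p = 0.0522).

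Among the synthesis genes, Gys2 counts were 4080 to 4823 with saline, the tightest saline group of any member in relative terms, and 3322 to 6235 with LNA29, on both sides of it. The log2 difference of Gys2 was 0.077 (95% interval -0.25 to 0.41, adjusted p = 0.887). Ugp2 counts were 17541 to 21967 with saline and 14927 to 26928 with LNA29, a log2 difference of 0.043 (-0.23 to 0.32). Gyg, the glycogenin that primes a new chain, gave 216 to 337 and 233 to 289, a log2 difference of -0.044 (-0.28 to 0.19). For these 3 genes the interval excludes a fold change of 1.5 in either direction. Phka2, the liver alpha subunit of phosphorylase kinase, gave 717 and 736 in the 2 floxed saline mice and 1377 to 2391 in the 3 WT saline mice. Its log2 difference of -0.031 (interval -0.67 to 0.61) joins opposite signs, -0.46 among WT and 0.67 among floxed mice.

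The 3 phosphatase targeting subunits did not share a direction, and none passed the call. Ppp1r3b, the subunit best known from liver, gave 11964 to 20178 with saline and 10266 to 21860 with LNA29, where 4 of 8 LNA29 mice lay below every saline mouse (log2 difference -0.32, SE 0.19, adjusted p = 0.502). It was -0.57 among WT and -0.031 among floxed mice. Ppp1r3c gave 7451, 10836, 5898, 5381 and 4051 with saline and a lowest, median and highest count of 5930, 8340 and 10268 with LNA29. All of the LNA29 mice lay above the saline median of 5898, with the highest count in saline replicate 2 (log2 difference 0.37, SE 0.20, adjusted p = 0.464). Without that mouse Ppp1r3c passed the call at 0.56 (adjusted p = 0.172). Within the 3 runs its log2 difference was 0.55, 0.82 and -0.20. Ppp1r3g gave 16.3 and 40.6 in the floxed saline mice, 138 to 160.0 in the WT saline mice and 19.7 to 502.7 with LNA29. The log2 difference was 0.88 (interval -0.59 to 2.34), and it was 0.26 among WT and 1.99 among floxed mice.

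**Figure D2:**
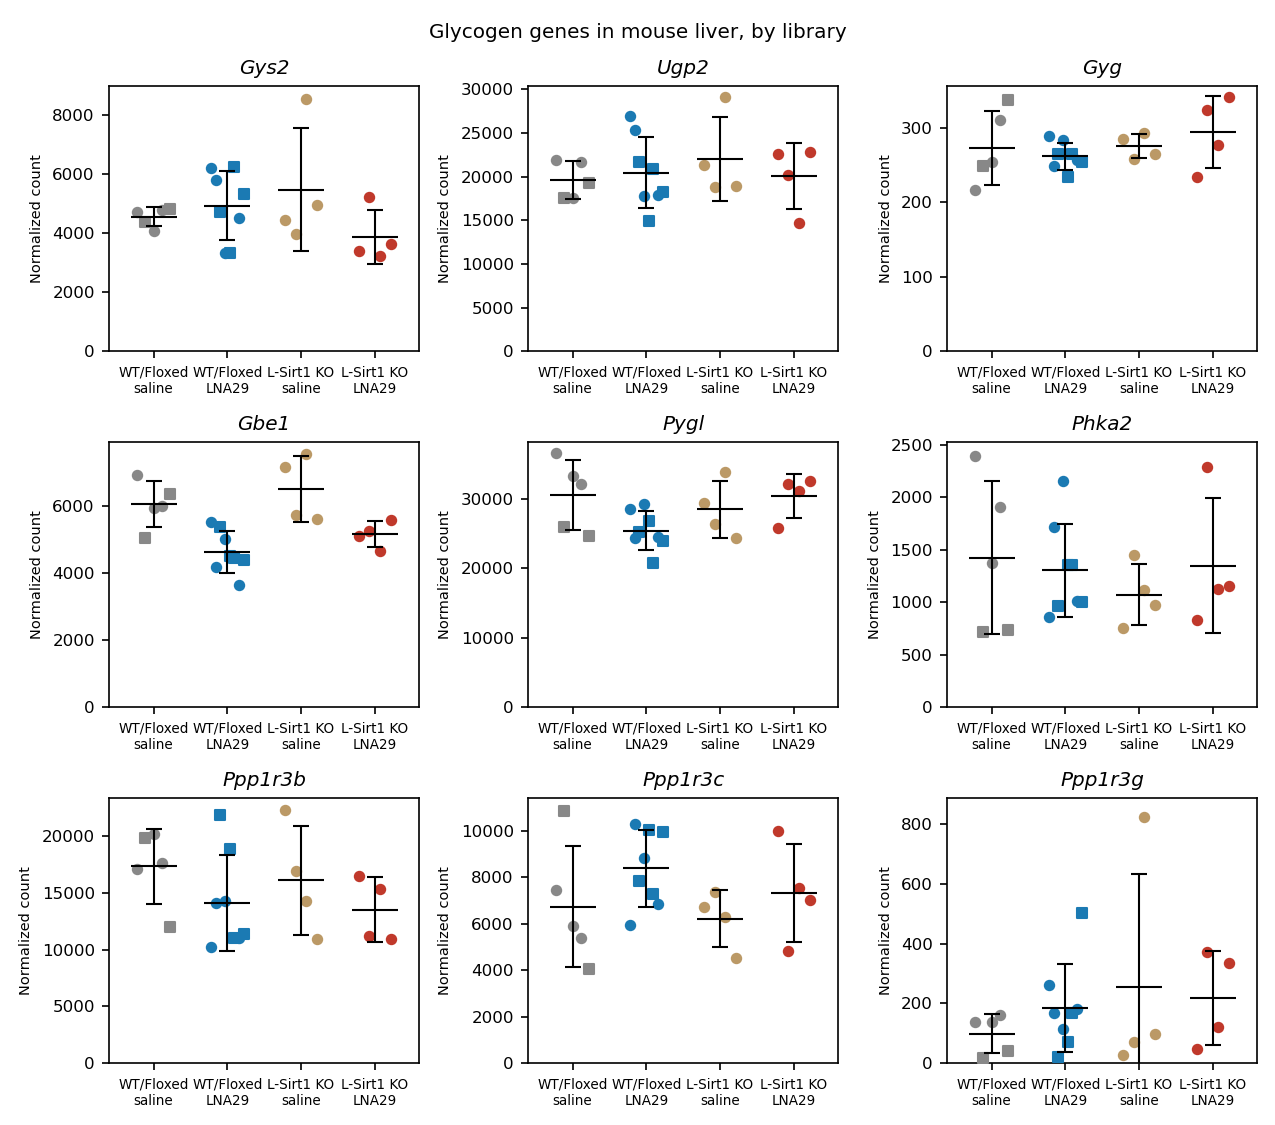
Normalized counts of the 9 glycogen genes in the 21 mouse livers, 1 panel per gene with its own axis from 0. Points are libraries (squares are floxed mice), and bars give the mean and SD. All 8 LNA29-treated WT/Floxed mice lie below the saline median of Gbe1, 6023, and the 4 LNA29-treated mice labelled L-Sirt1 KO lie below all 4 saline-treated ones. Bars that reach below 0 are cut at the axis.

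The second comparison asks the same of mice labelled L-Sirt1 KO, and here no member passed the call. The limma count was 0 of 9, against 1.87% of 15885 genes, with 1 member at an unadjusted p under 0.05 (11.2% of all genes). Gbe1 was that member and had groups that did not overlap, as had 6.95% of all genes (3.3% lower, 3.65% higher). The median log2 difference was 0.081 over the members and -0.0027 over all genes. Gbe1 counts were 7171, 5730, 7571 and 5634 with saline and 5125, 5279, 4675 and 5594 with LNA29. The highest LNA29 count was thus just under the lowest saline count. The log2 difference of Gbe1 was -0.33 (SE 0.12, 95% interval -0.59 to -0.069, adjusted p = 0.324 by limma). The exact permutation p was 0.0286, the smallest that 70 splits of 4 against 4 allow. It stayed between -0.25 and -0.39 when each mouse was left out and was -0.29, -0.22 and -0.46 within the 3 runs.

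Gys2 gave 4439, 3969, 8537 and 4959 with saline and 3388, 5247, 3240 and 3641 with LNA29. Saline replicate 3 held by far the highest count, and 3 of 4 LNA29 mice lay below all saline mice. The log2 difference of Gys2 was -0.46 (95% interval -0.99 to 0.076, adjusted p = 0.528) and -0.22 without that saline mouse. Saline replicate 3 was the highest of its group in 6 of 9 members, Ppp1r3g included, where it stood at 822.3 against 28.6 to 99.0 in the other 3. It also stood apart in Dbp, a clock output gene, at 7449 against 146.1 to 480.3. Its part in the differences beyond the fits without it was not tested. The other 7 members had log2 differences from -0.23 (Ppp1r3b) to 0.51 (Ppp1r3g), with adjusted p from 0.739 to 0.878. Of these, Pygl (0.099, interval -0.17 to 0.37), Gyg (0.081, -0.23 to 0.39) and Ugp2 (-0.14, -0.53 to 0.26) were measured best, whereas Ppp1r3g (-1.67 to 2.69) and Phka2 (0.26, -0.40 to 0.93) were hardly limited. Ppp1r3c was at 0.22 (-0.27 to 0.70). The mean count of Ppp1r3g was lower with LNA29, 218.6 against 255.5 with saline, although its log2 difference was above 0.

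Whether the LNA29 response differed between the genotypes was tested directly, as the response of mice labelled L-Sirt1 KO minus that of WT/Floxed mice. The WT mice were younger than the mice labelled L-Sirt1 KO, whereas the floxed mice had the same age range. Genotype is therefore mixed with age and background in this contrast. None of 9 members passed (adjusted p under 0.2), against 0.0449% of 15601 genes, and 1 member had an unadjusted p under 0.05, as had 9.14% of all genes. The 2 log2 responses of Gbe1 differed by 0.062 (95% interval -0.27 to 0.40, limma adjusted p = 0.943). Pygl was the member with the lowest p, at a difference of 0.35 (interval 0.0058 to 0.70, limma adjusted p = 0.532), and it passed with sample quality weights (0.56, adjusted p = 0.0861). The log2 response of Pygl was 0.099 in mice labelled L-Sirt1 KO, -0.35 among WT mice and -0.075 among floxed mice. The difference from floxed mice alone was not tested. For Gys2 the difference was -0.53 (interval -1.13 to 0.065). The tables were normalized separately, and this contrast uses differences within each of them.

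**Figure D3:**
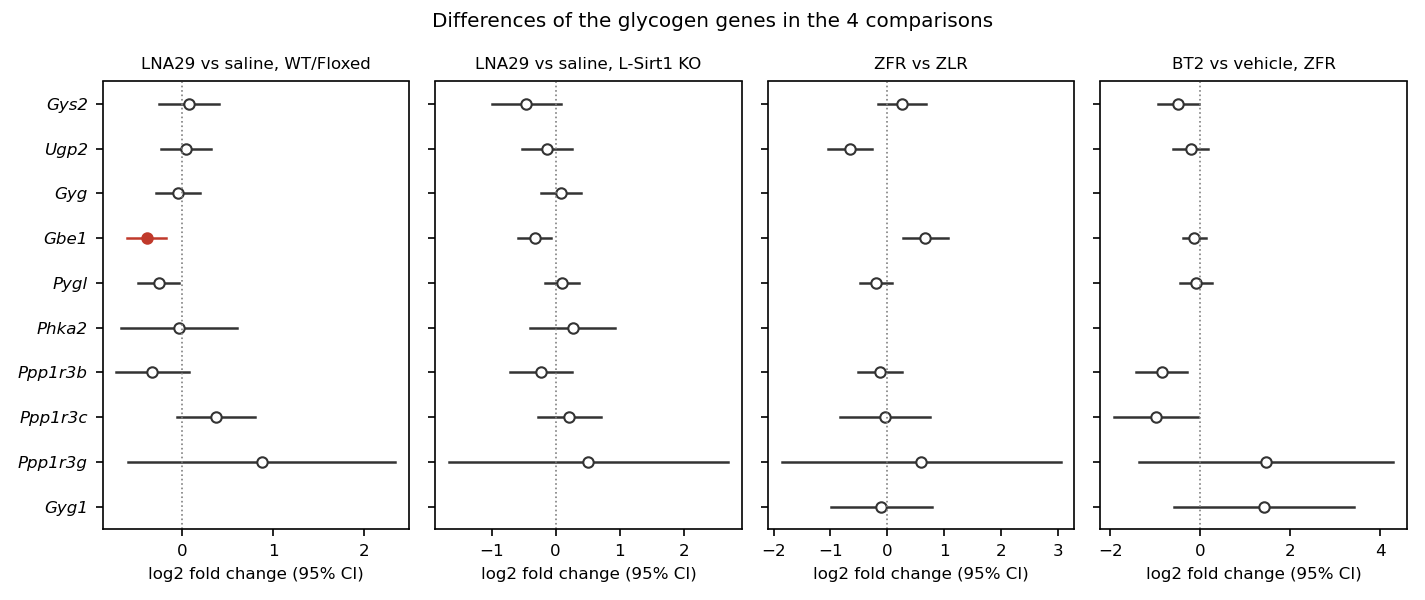
Log2 fold changes with 95% intervals (limma) of the glycogen genes in the 4 comparisons, each with its own x axis. The filled red point marks the 1 called difference, Gbe1 in WT/Floxed mice at -0.39. Genes without a point were below the minimum mean of 10 or are under another name, as Gyg and Gyg1.

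The third comparison is of obese and lean rats. A rat call required an adjusted p under 0.05 (limma). None of the 7 members tested passed it, against 4.25% of 8633 genes (1.8% higher, 2.46% lower in ZFR), and 2 had an unadjusted p under 0.05 (16.6% of all genes). Those 2 were Gbe1 and Ugp2, with opposite signs. The median log2 difference was -0.039 over the members and 0.070 over all genes. Phka2 was listed at 0 to 3.11 counts and was not tested.

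Gbe1 counts were 412, 378, 379 and 227 in ZLR and 548, 517, 601 and 503 in ZFR, in the order of replicate numbers. Each ZFR was above every ZLR, as in 14.5% of all genes (7.8% higher and 6.68% lower in ZFR). The log2 difference was 0.67 (SE 0.18, 95% interval 0.27 to 1.07, adjusted p = 0.0772 by limma), and the exact permutation p was 0.0286, again the smallest possible. The lowest ZLR value rests on an estimated 21.7 reads and that of ZLR replicate 3 on 36 reads, while ZLR replicates 1 and 2 had 10747 and 8746. Without ZLR replicate 4 Gbe1 passed the call at 0.47 (adjusted p = 0.037), and without both shallow lean libraries the value was 0.46 (adjusted p = 0.0621). Within the runs the log2 difference was 0.43 and 0.90.

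Ugp2 counts were 523, 588, 438 and 490 in ZLR and 309, 305, 443 and 253 in ZFR. All ZFR lay below the ZLR median, and the groups overlapped through ZFR replicate 3 at 443. The log2 difference was -0.66 (SE 0.17, 95% interval -1.04 to -0.28, adjusted p = 0.0668 by limma), and the exact permutation p was 0.0571. It was -0.85 and -0.47 within the runs, and it passed the call without ZFR replicate 3 (-0.82, adjusted p = 0.0197). Gbe1 and Ugp2 both passed with read precision weights (0.55 and -0.74), with sample quality weights (0.50 and -0.86) and under the mouse thresholds. Read precision weights favour the deeper libraries.

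No other member had an unadjusted p under 0.05 between ZFR and ZLR. Pygl was at 527 to 809 in ZLR and 562 to 595 in ZFR (log2 difference -0.20, interval -0.48 to 0.083). Gys2 was at 94.8 to 149.4 and 116.5 to 185.9 (0.25, -0.17 to 0.68), with 9 and 11 reads behind the values of ZLR replicates 3 and 4. Ppp1r3b gave -0.13 (-0.51 to 0.25), with opposite signs within the runs (0.24 and -0.49). Ppp1r3c gave -0.039 (-0.83 to 0.75). Ppp1r3g and Gyg1 had group means of 10.2 to 17.1 counts and intervals wider than 1.5 on the log2 scale, and the highest Ppp1r3g value, 42.1 in ZLR replicate 3, is 4 reads.

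Several marker lists held genes called between ZFR and ZLR. Of 7 feeding genes 5 were called higher, among them Fasn at a log2 fold change of 2.66 and Thrsp at 1.77. Of 12 clock genes 6 were called, 4 higher and 2 lower, such as Dbp (5.01) and Arntl (-2.46). The Dbp values of ZLR replicates 3 and 4, 7.37 and 0, lie below the value of 1 read in those libraries. Acta2 (2.24) and Col1a1 (4.16) were called higher among 7 stellate cell genes tested. Not called were Dcn (3.00), Reln (0.89), Des (0.37), Lrat (-0.013) and Pdgfrb (-0.56). In ZLR, Col1a1 was at 0 to 8.05 and Acta2 at 6.17 to 21.1. There 1 read was worth 10.5 counts in replicate 3 and 10.4 in replicate 4. The 8 listed stellate genes summed to 142.2 to 200.5 in ZLR and 271.2 to 422.97 in ZFR. Among 7 hepatocyte genes Ttr, Apob and Cps1 were called lower, and the list summed to 226137 to 295275 in ZLR and 177231 to 268428 in ZFR. Of 4 endothelial genes tested Stab2 was called higher (1.16), whereas Clec4g (0.97), Lyve1 (-0.075) and Kdr (-0.31) were not called. Their part in the values of Gbe1 and Ugp2 was not tested.

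The fourth comparison is of BT2 and vehicle in ZFR. None of 7 members passed (limma, adjusted p under 0.05), nor did any of the 8405 genes tested (0%). An unadjusted p under 0.05 was reached by 3 members, Ppp1r3b, Ppp1r3c and Gys2, and by 3.95% of all genes. The groups overlapped for each member, while 2.96% of all genes did not overlap (1.44% lower, 1.52% higher). The median log2 difference was -0.21 over the members and 0.0061 over all genes. All 3 had values below 0, and each had the adjusted p 0.898.

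Ppp1r3b counts were 501, 946, 835 and 800 with vehicle and 296, 342, 652 and 436 with BT2. All BT2 rats lay below the vehicle median, and the groups overlapped between vehicle replicate 1 and BT2 replicate 3. The log2 difference was -0.86 (SE 0.26, 95% interval -1.43 to -0.29), with an exact permutation p of 0.0571, and it was -1.11 and -0.61 within the runs. Gys2 gave 109, 113, 125 and 186 with vehicle and 117, 89.4, 84.4 and 81.6 with BT2 (log2 difference -0.49, interval -0.95 to -0.032). The highest vehicle value of Gys2 rests on 18 reads, and without that rat, replicate 4, the difference was -0.32. Within the runs it was -0.11 and -0.87. Ppp1r3c gave 631, 1831, 326 and 857 with vehicle and 285, 378, 561 and 354 with BT2 (-0.98, interval -1.92 to -0.040), with its highest count in the deepest library of that table, vehicle replicate 2. Without that rat the difference of Ppp1r3c was -0.55, and within the runs it was -1.71 and -0.25.

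Gbe1 was at 574 to 752 with vehicle and 567 to 661 with BT2 (log2 difference -0.13, interval -0.39 to 0.14), so a change of 1.5-fold lies outside the interval. Pygl (-0.088, -0.45 to 0.27) and Ugp2 (-0.21, -0.60 to 0.17) were near 0 as well, though intervals of this width hold moderate differences. The low counts of Ppp1r3g, 0 to 26.7, and Gyg1, 0 to 37.05, left intervals from -1.37 to 4.29 and from -0.58 to 3.41. Without vehicle replicate 4, the library under 0.2 M reads, the log2 difference of Ppp1r3g went from 1.46 to 0.80 and that of Gyg1 from 1.41 to 0.42. Among the feeding genes 4 of 7 and among the clock genes 2 of 12 had an unadjusted p under 0.05, with none called. Dbp was at 55.2 to 315.7 with vehicle and 7.60 to 73.2 with BT2.

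**Figure D4:**
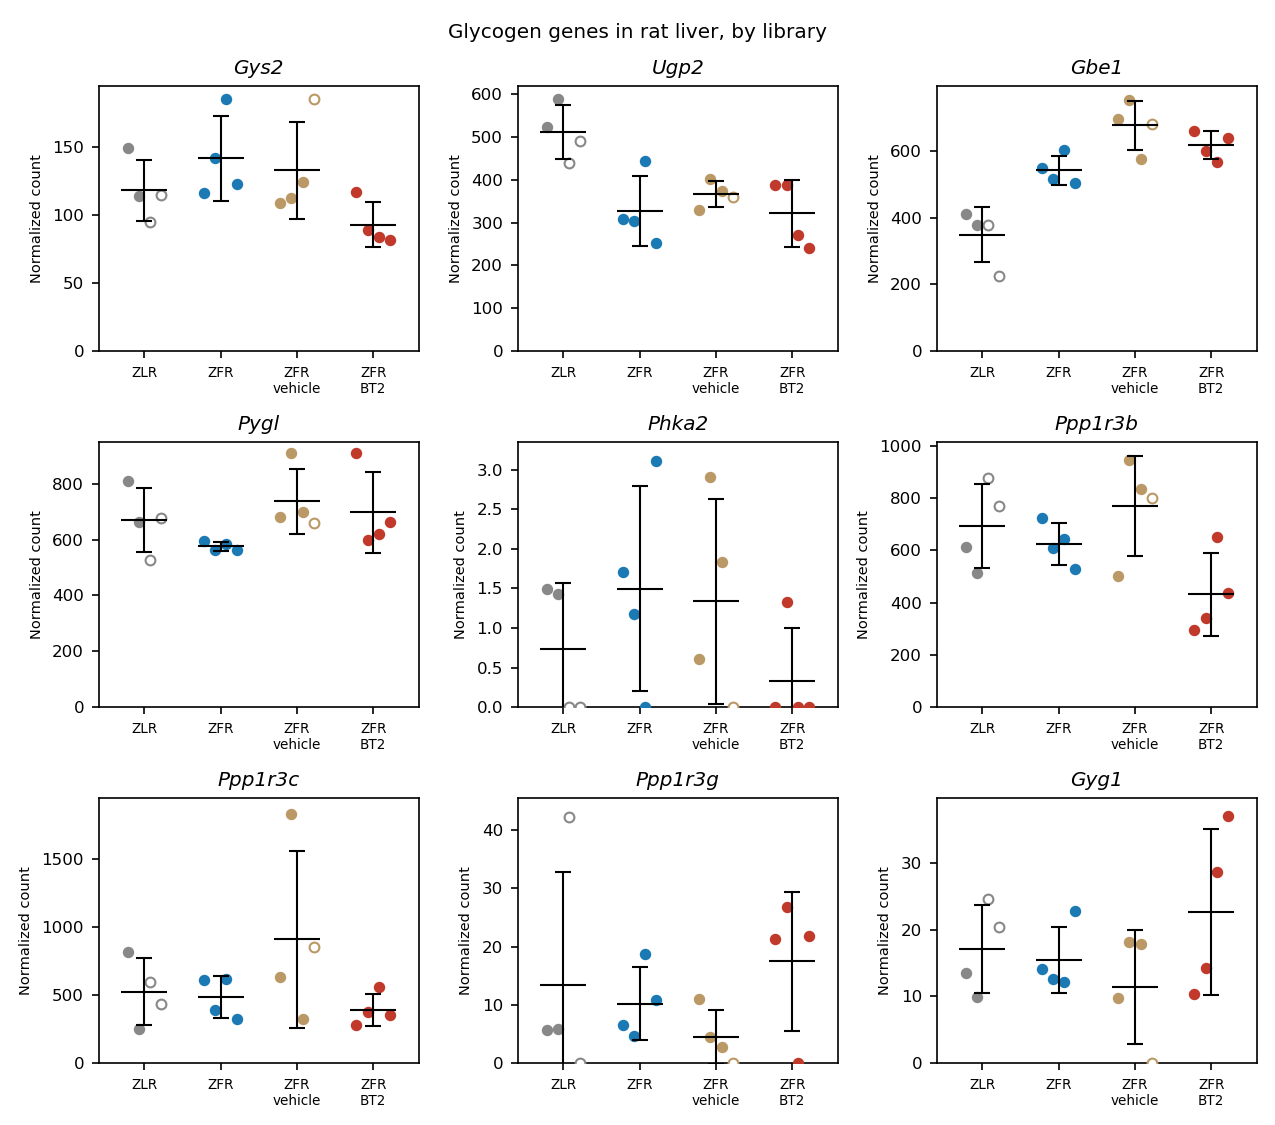
Normalized counts of 8 glycogen genes and Gyg1 in the 16 rat livers, 1 panel per gene with its own axis from 0. Points are libraries, open where the library held under 0.2 M reads, and bars give the mean and SD, cut at 0. The 4 ZFR lie above the 4 ZLR for Gbe1 (503 to 601 against 227 to 412), and all BT2 values of Ppp1r3b lie below the vehicle median.

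The rest of the pathway was read from 5 lists: other glycogen enzymes, phosphorylase kinase subunits, protein phosphatase 1 subunits, genes of glucose 6-phosphate entry and exit, and genes of hormone input. In WT/Floxed mice 3 of 43 genes (6.98%) passed the call, 1 higher and 2 lower, against 4.35% of all genes, with a median log2 fold change of -0.058. Gckr, which encodes a regulatory protein of liver sugar metabolism, fell from 11064 to 8688 (log2 fold change -0.35, adjusted p = 0.0214 by limma), and its groups did not overlap, as was so for 1.51% of all genes. Epm2a, which encodes the glycogen phosphatase laforin, fell by 0.55 on the log2 scale (adjusted p = 0.173). Gaa, the lysosomal glucosidase that digests glycogen, rose from 5116 to 6263 (0.29, adjusted p = 0.0985). Hk3 (-0.98), Irs2 (0.87) and Ppp1r3f (0.32) had the largest absolute values of their lists, and none of them was called.

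In mice labelled L-Sirt1 KO 2 of 43 genes (4.65%) passed, both higher, against 1.87% of all genes in either direction and 1.19% higher. G6pc, which releases free glucose from glucose 6-phosphate, rose from 23232 to 39016 (log2 fold change 0.75, adjusted p = 0.0538). Irs2, an adaptor of the insulin receptor, rose from 1481 to 2703 (log2 fold change 0.94, adjusted p = 0.165), and both genes had groups that did not overlap, against 6.95% of all genes. In WT/Floxed mice the values of G6pc (0.86, adjusted p = 0.413) and Irs2 (0.87, adjusted p = 0.207) did not pass. In the lists without a called gene, the largest values were Stbd1 at -0.52, Phka1 at 0.38 and Ppp1r3f at 0.44.

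Feeding and fasting markers stood beside these results in the mice. Among 7 feeding genes Fasn, Acly and Thrsp passed the call in WT/Floxed mice, all lower with LNA29, while the L-Sirt1 KO table had no called feeding gene. Of 8 fasting genes Igfbp1 was called in the L-Sirt1 KO table (1.19, adjusted p = 0.0603) and none in the WT/Floxed table. None of 13 clock genes was called in either table, while 0 and 6 had an unadjusted p under 0.05. Clec4f (-0.29) and Vsig4 (-0.54) of 8 macrophage genes were called lower in mice labelled L-Sirt1 KO. Not called there were Adgre1 (-0.41), Csf1r (-0.40), Cd5l (-0.39), Timd4 (-0.016), Cd68 (-0.0042) and Marco (0.71). Lyve1 of 5 endothelial genes was called lower in both tables. The log2 values of Pecam1, Stab2, Clec4g and Kdr ran from -0.071 to 0.078 in mice labelled L-Sirt1 KO and from -0.17 to 0.029 in WT/Floxed mice, with none called. Of 7 hepatocyte genes Apoa1 was called higher (0.51) and Tat lower (-0.48) in WT/Floxed mice, and none in the L-Sirt1 KO table. Pancreatic acinar genes summed to 21.7 to 1153 counts over the 13 WT/Floxed libraries. Their part in the values of the glycogen genes was not tested.

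In rats 2 of 27 genes of the 5 lists (7.41%) passed between ZFR and ZLR, against 4.25% of all genes. Gckr fell from 573.9 to 268.2 (log2 fold change -1.12, adjusted p = 0.0112), and Slc2a2, the liver glucose transporter, rose from 883.7 to 1235 (0.48, adjusted p = 0.0137). Groups did not overlap for either gene, nor for 14.5% of all genes. Among the largest values of the other lists were Gsk3b at 1.37, Phkg2 at 0.26 and Ppp1cc at -0.24. With BT2 no gene of these lists passed (0 of 27). An unadjusted p under 0.05 was found for 2 of them, against 3.95% of all genes.

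**Figure D5:**
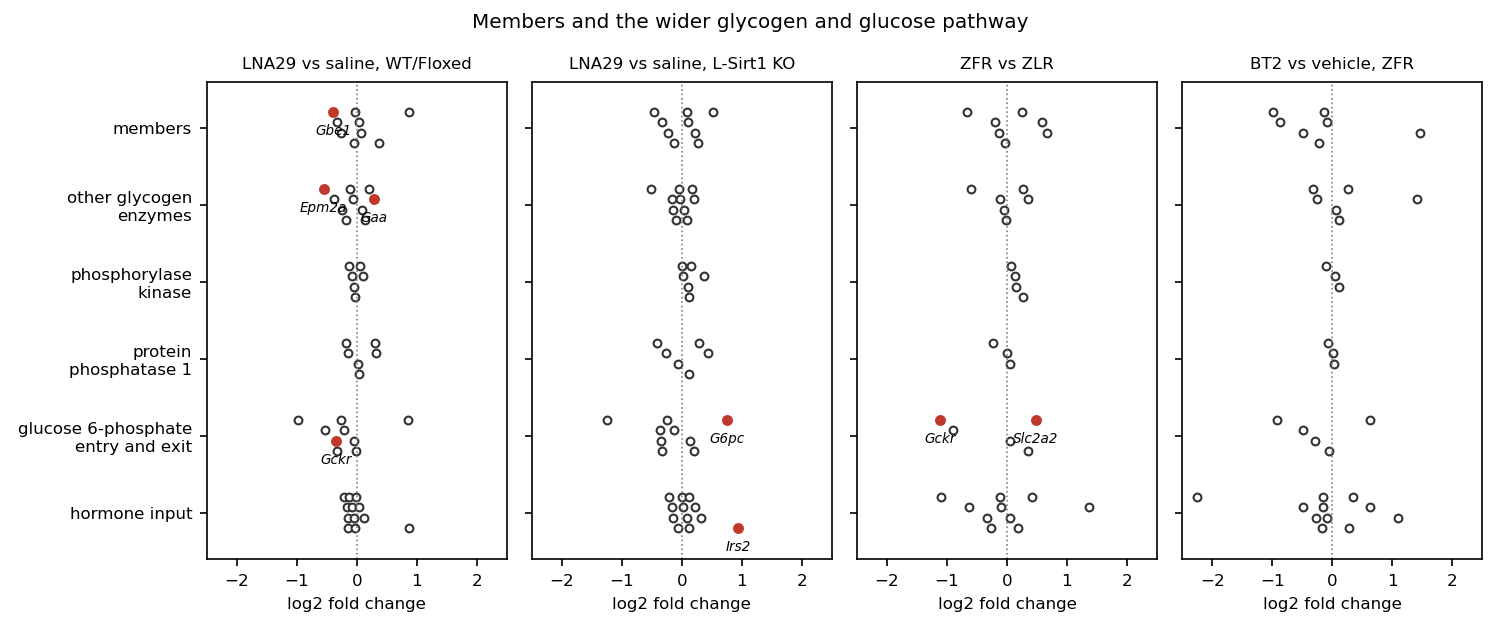
Log2 fold changes of the tested glycogen genes and of 5 wider lists in the 4 comparisons, 1 point per gene, filled red where the call was met, with the gene named. The called genes are Gbe1, Epm2a, Gaa and Gckr in WT/Floxed mice, G6pc and Irs2 in mice labelled L-Sirt1 KO, and Gckr and Slc2a2 in rats. Vertical offsets within a list only separate the points.

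Genes that followed each member most closely over the 13 WT/Floxed libraries were sought among 11736 named genes with a mean above 50, by Pearson r of log2 counts. The 18 genes found, 2 per member, had r from 0.80 to 0.95, included no other member, and had r from -0.60 to 0.98 over the 8 libraries labelled L-Sirt1 KO. The highest of many correlations is high by selection, and all points share the treatment contrast, so these are descriptions only. In 6 of the 18 pairs r was above 0.7 in the second table too. Among the genes nearest to Gbe1 was Thnsl2 (r = 0.90, and 0.98 in the second table). Gys2 was closest to Cmtm8 (0.89 and 0.91) and Tox (0.89 and 0.77). Ppp1r3b had C1galt1 (0.88 and 0.71) and Tsku (0.80 and 0.84) as nearest genes. Ppp1r3g was nearest to Mycl (0.92 and 0.71) and to Pck1 (0.90 and 0.57), which encodes an enzyme of gluconeogenesis that fasting raises. The nearest genes of the other members did not reach 0.7 in the second table. Among them were Adam9 and Sfxn1 for Pygl, Ppan for Ppp1r3c, Kcnn2 and Ogn for Ugp2, Kcnh7 and Mrpl45 for Gyg, and Csnk1g3 and Alkbh5 for Phka2.

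The members lie apart in the mouse genome, on 9 chromosomes of GRCm38. Beside Gbe1 these are chromosome 6 for Gys2 (142422613 to 142473109), 12 for Pygl (70190811 to 70231488), 8 for Ppp1r3b (35375739 to 35388139), 19 for Ppp1r3c (36731731 to 36736653), 13 for Ppp1r3g (35958839 to 35970388), 11 for Ugp2 (21321138 to 21371201), 3 for Gyg (20122084 to 20155317) and X for Phka2 (160502166 to 160598878). Exons of Ugp2 share 78 bases with Gm12043 and those of Phka2 share 115 bases with Gm15243, both on the opposite strand. The strand setting of the counting is not given in the sources used here, so reads of these overlaps cannot be assigned to one gene.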

How the data were processed

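Polyadenylated RNA of 37 livers had been sequenced. The deposited values are a signal that the authors made by aligning reads to mm10 or rn6 with STAR (2.5.3a), estimating gene counts with Salmon (0.6.0) and dividing them by DESeq2 factors, each of the 4 tables alone. Every column was matched to a sample (0 unmatched). Depth was estimated as the total divided by the value of 1 read (0.746 to 1.37 in mice, 0.0322 to 10.5 in rats). Since 69.3% to 90.3% of low values were whole multiples of it (tolerance 0.01 reads), whole reads were not recovered and no count model was run. Entries without a name or with a repeated name were left out (at most 0.0461% and 2.17% of counts).

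Genes with a mean of at least 10 were tested on log2(normalized count + 1) with limma 3.58.1 (R 4.3.3, eBayes with a trend), after the scripts had been tested on simulated data. For low or widely spread genes, fold changes on this scale can lie below or above the ratio of means, and can differ from it in direction. For Ppp1r3g the fold change was 1.43 in mice labelled L-Sirt1 KO (ratio of means 0.856) and 1.51 in ZFR against ZLR (ratio of means 0.763). With BT2 the fold change was 2.75 for Ppp1r3g (ratio of means 3.84) and 2.67 for Gyg1 (ratio of means 1.98). Single members had an exact permutation test over samples, two-sided (Python 3.11.15). Replicates are separate animals. The members and lists were chosen with earlier results of these data known. Named are all members, every called gene and the largest log2 fold change of each wider list, and the 2 genes most like each member. Some genes that this rule names are not reported here. Fits were repeated with a pseudocount of 10, without the minimum mean, with unweighted TMM scaling, sample quality weights, the run or background as a covariate, a replicate block, other thresholds, read precision weights in rats, and each library left out. The fit without libraries under 0.2 M reads was chosen after seeing the data. Exon lengths, positions and 3′ UTRs came from GENCODE M21 (GRCm38). Rat positions were not used here.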

Additional observations from a re-analysis of the deposited data

Results flagged for a closer look

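Of 68 sets of values (1 gene in 1 group), 3 held a library far from the others, where chance flags about 1 in 20 sets, or 3.4. Ppp1r3g was at 822.3 in saline replicate 3 of the mice labelled L-Sirt1 KO, against 28.6 to 99.0 in the other 3. Ppp1r3g was at 42.1 in ZLR replicate 3, a library of an estimated 0.188 M reads, against 0 to 5.83. Pygl was at 910.3 in ZFR vehicle replicate 2, the deepest library of its table at 8.96 M reads, against 660.8 to 696.7. No member's LNA29 response was shown to differ between the genotypes.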

How the results depend on the processing

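With 8 and 5, or 4 and 4, animals a group, and rat values that rest on a few reads in the shallow libraries, a p-value that misses the limit does not show that values are alike. The calls among the glycogen genes moved with the setting. In WT/Floxed mice, where 1 was called, sample quality weights called 3 (Gbe1, Pygl and Ppp1r3b), an adjusted p under 0.05 called 0, and leaving out each mouse gave 0 to 2. Gbe1 itself was called in 12 of those 13 fits. In ZFR against ZLR, where 0 were called, a pseudocount of 10 called 1 (Ugp2), sample quality weights, read precision weights and the mouse thresholds called 2 each (Gbe1 and Ugp2), and leaving out each rat gave 0 to 1. The difference between genotypes had 0 calls and 1 with sample quality weights (Pygl). In mice labelled L-Sirt1 KO and with BT2, 0 members were called under each alternative run. The cause of these moves was not tested.

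No paired reading is used, since the correlation of the deviations of same-numbered libraries was not above 0.1 for every number in any comparison. With the replicate block 1, 0, 0, 0 and 0 members were called in the 5 comparisons in the order of the report, as without it.

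Signs turned for some values that were not called, among them the Gbe1 difference between genotypes. Under sample quality weights these were Ugp2 in WT/Floxed mice (-0.047), Ppp1r3b (0.26), Ppp1r3c (0.53) and Gyg1 (0.35) in ZFR against ZLR, and Ppp1r3g between the genotypes (0.044). With background as a covariate Phka2 was at 0.033 in WT/Floxed mice. Read precision weights gave 0.021 for Ppp1r3c and 0.27 for Gyg1, and the fit without libraries under 0.2 M reads gave 0.15 for Ppp1r3b, 0.053 for Ppp1r3c and 0.34 for Gyg1, all in ZFR against ZLR. Leaving out each library took the value through 0 in WT/Floxed mice for Ugp2 (-0.017 to 0.10), Gyg (-0.12 to 0.036) and Phka2 (-0.24 to 0.20), and in mice labelled L-Sirt1 KO for Ppp1r3g (-0.14 to 1.46), Ugp2 (-0.20 to 0.0071) and Phka2 (-0.023 to 0.46). In rats it did so for Ppp1r3c (-0.36 to 0.22), Ppp1r3g (-0.32 to 0.86) and Gyg1 (-0.32 to 0.084) in ZFR against ZLR and for Pygl with BT2 (-0.22 to 0.017). Between the genotypes it did so for Ppp1r3b (-0.076 to 0.27), Ppp1r3c (-0.35 to 0.029), Ppp1r3g (-1.02 to 0.58) and Gbe1 (-0.0049 to 0.14).

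Over all genes the number called moved more than 1.5 times with the setting, from 216 to 1308 in WT/Floxed mice (688 as reported), 39 to 804 in mice labelled L-Sirt1 KO (297), 241 to 1169 in ZFR against ZLR (367), 5 to 1220 for the difference between genotypes (7) and 0 to 1 with BT2 (0).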
